A study of Mus musculus with 6 samples.

Results

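Lysyl oxidases and the proteins of the elastic fibre were followed in endothelial cells sorted from mammary glands that expressed the PyMT oncogene, with or without Ets2 in the surrounding fibroblasts. The set held 10 genes: the oxidases Lox, Loxl1, Loxl2 and Loxl3, the core protein Eln, the microfibril genes Fbn1 and Mfap5, and the fibulins Fbln1, Fbln2 and Fbln5. A gene was measured where the array annotation tied at least 1 probe set (the group of short probes that reads a transcript) to that gene and to no other. By this rule 8 of the 10 were measured, by 17 probe sets, among 18193 genes measured in all. Loxl2 was left out because its 2 probe sets were also annotated to Gm21451, and no probe set was named for Fbn1 here. The brightest probe set over the 6 arrays represented a gene and the others are given beside it.

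Lysyl oxidases are secreted, copper-dependent enzymes that oxidise lysine side chains in collagen and tropoelastin, the step from which the covalent crosslinks of collagen fibrils and elastic fibres form. An elastic fibre has a core of crosslinked elastin laid down on fibrillin microfibrils, with fibulins and microfibril-associated glycoproteins at the interface. In tissue these proteins come mainly from fibroblasts, smooth muscle and the walls of larger vessels, and endothelial cells make several of them as well.

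Each of the 2 groups held 3 samples of CD31-sorted cells from FVB/N mice aged 9 weeks, and 1 Affymetrix Mouse Genome GeneChip array was run per sample. The controls had the genotype PyMT;Ets2db/loxP, so they carried the oncogene and the same Ets2 alleles. The deleted group was PyMT;Fsp-cre;Ets2db/loxP, in which Cre is driven by the Fsp promoter, used to target fibroblasts. The source label of the control samples speaks of no oncogene, against their genotype label, which names PyMT and was followed. The labels do not say whether a sample came from 1 animal or from a pool, so p-values measure the spread between these samples only.

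The cells on the arrays were not those aimed at by the deletion, and the Ets2 probe set read 14.38 ± 0.12 in the controls and 14.41 ± 0.10 in the deleted group (log2 signal, SD, n = 3), a level that therefore does not check the labels. Array medians lay between 7.02 and 7.07 on the log2 scale. The 14 endothelial markers were bright on every array, between 9.70 and 13.48, where all values tested ran from 2.31 to 14.91. Some markers of other cells were as bright. Mammary epithelial markers read up to 14.68, smooth muscle and pericyte markers up to 13.96, macrophage markers up to 12.93 and fibroblast markers up to 12.72. Probes differ between genes, so these levels do not give the share of each cell type. No single probe set on the array passed limma with Benjamini-Hochberg adjustment (0 of 45037 at an adjusted p of 0.05, 934 at an unadjusted p under 0.05), and the smallest adjusted p was 0.9999. No member therefore rose or fell by that test, and the values below are given as measured.

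Lox, Loxl1 and Mfap5 read lower on every array of the deleted group than on any control array. Their levels were 1.52-, 1.66- and 1.34-fold higher in the controls, respectively. Among all genes 2.7% were lower without overlap between the groups. Of the 8 measured members 7 had a lower mean in the deleted group and 1, Loxl3, a higher mean, and the median difference was -0.11 on the log2 scale. With 1 array left out 5 to 7 of the 8 had a lower mean. Over all genes 49.1% had a lower mean and the median difference was 0.0042. The remaining 5 members lay within the spread of the arrays. Fewer cells of a type and less RNA per cell cannot be told apart in such bulk samples.

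**Figure D1:**
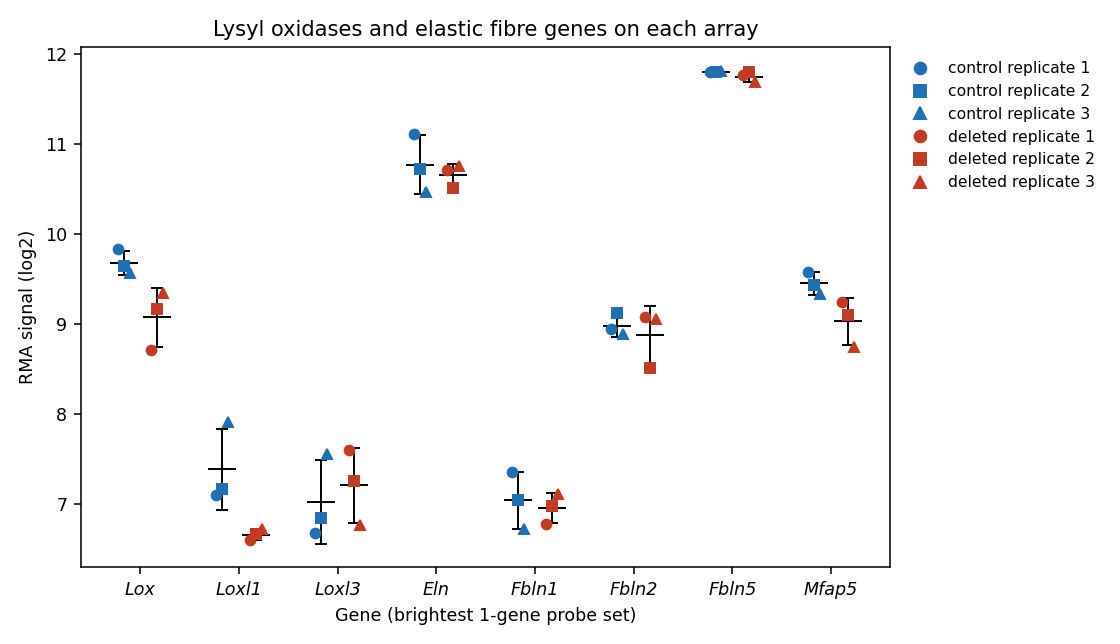
RMA signal (log2) of the brightest probe set of each of the 8 measured genes on the 3 control (blue) and 3 deleted (red) arrays; horizontal bars are group means and error bars are SD, and heights are not comparable between genes because probes differ. The blue and red points are apart for Lox, Loxl1 and Mfap5 and overlap for Loxl3, Eln, Fbln1, Fbln2 and Fbln5.

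The lysyl oxidases came first, as the enzymes on which crosslinking depends. Lox, the founding member of the family, read 9.83, 9.64 and 9.57 on control arrays 1 to 3 and 8.71, 9.17 and 9.35 on deleted arrays 1 to 3 (log2 signal). All controls were above all deleted arrays, deleted array 1 lay lowest, and the gap between the nearest arrays was 0.22. The group means were 9.68 ± 0.13 and 9.07 ± 0.33 (SD, n = 3), which gave a difference of -0.60 with a SE of 0.20 and a 95% interval of -1.06 to -0.14 (limma, unadjusted p = 0.017, adjusted p = 0.9999). A lower difference was found for 1.24% of all genes.

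The other probe sets of Lox did not separate the groups. 1448228_at read 8.76, 7.93 and 7.25 in the controls and 8.20, 7.27 and 8.17 in the deleted group, a spread of over 1 log2 unit inside the control group and a difference of -0.10 with a 95% interval of -1.08 to 0.88. 1437903_at lay between 2.87 and 3.12 on all 6 arrays, near the low end of the array's values, and differed by -0.079. The lower reading of Lox thus rested on 1 of its 3 probe sets, and the mean over the 3 differed by -0.26.

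Loxl1, the family member needed for the renewal of elastic fibres, read 7.09, 7.16 and 7.90 in the controls and 6.59, 6.66 and 6.72 in the deleted group. The deleted arrays were close together, and the controls ranged higher, with control array 3 above the other 2. The means were 7.39 ± 0.45 and 6.66 ± 0.06 (SD, n = 3), a difference of -0.73 with a SE of 0.23 and a 95% interval of -1.27 to -0.18 (limma, unadjusted p = 0.016, adjusted p = 0.9999). Only 0.555% of all genes had a lower difference.

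The second Loxl1 probe set, 1436063_at, also separated the groups, though narrowly. It read 5.93, 6.15 and 6.71 in the controls against 5.79, 5.89 and 5.23 in the deleted group, with 0.036 between the nearest arrays. Its difference was -0.63 with a SE of 0.26 and a 95% interval of -1.24 to -0.01 (limma, unadjusted p = 0.047, adjusted p = 0.9999). Both probe sets were highest on control array 3, which also had the widest gap between the 3′ and 5′ probe sets of Gapdh, a measure of RNA integrity (1.31 log2 units against 0.752 to 1.01 on the other arrays). Without that array Loxl1 differed by -0.47, and the groups were still apart.

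Loxl3, a further oxidase of the family, was measured by a single probe set and was the only member with a higher mean in the deleted group. It read 6.67, 6.84 and 7.55 in the controls and 7.59, 7.25 and 6.77 in the deleted group. The groups overlapped through control array 3 and deleted array 3. The difference was 0.18 with a 95% interval of -0.51 to 0.88 (limma, unadjusted p = 0.55), and it was -0.010 without deleted array 1 and 0.45 without control array 3. This interval holds a lower level as well as a higher one.

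Mfap5, a glycoprotein of the fibrillin microfibril, had 2 probe sets and both were lower without overlap. The brighter one, 1449082_at, read 9.58, 9.44 and 9.33 in the controls and 9.25, 9.10 and 8.74 in the deleted group. The nearest arrays were 0.082 apart. Its means were 9.45 ± 0.13 and 9.03 ± 0.26 (SD, n = 3), and the difference was -0.42 with a SE of 0.17 and a 95% interval of -0.83 to -0.01 (limma, unadjusted p = 0.046, adjusted p = 0.9999). A lower difference was found for 3.61% of all genes.

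The second Mfap5 probe set, 1418454_at, showed the largest difference of the 17. It read 9.39, 9.10 and 9.24 in the controls and 8.25, 8.71 and 8.12 in the deleted group. The nearest arrays were 0.39 apart, so that the separation was wider than for the brighter probe set. The means were 9.24 ± 0.15 and 8.36 ± 0.31 (SD, n = 3), a level 1.84-fold higher in the controls. The difference was -0.88 with a SE of 0.19 and a 95% interval of -1.33 to -0.43 (limma, unadjusted p = 0.0024, adjusted p = 0.9999). Deleted array 3 was lowest by both probe sets, and without it the brighter one differed by -0.28.

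Eln, which encodes the tropoelastin monomer that the oxidases crosslink, was not separated. Its brighter probe set read 11.12, 10.72 and 10.47 in the controls and 10.71, 10.51 and 10.75 in the deleted group. The deleted arrays lay inside the range of the controls, and the difference was -0.11 with a 95% interval of -0.57 to 0.35 (limma, unadjusted p = 0.59). It was 0.063 without control array 1. The second probe set, 1420854_at, lay between 7.81 and 8.29 and differed by 0.022 with a 95% interval of -0.38 to 0.43. A difference in Eln of the size measured for Loxl1 was outside both intervals.

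Fbln5, a fibulin that binds both elastin and cell-surface integrins and is needed for elastic fibre assembly, was the steadiest member. It read 11.80, 11.81 and 11.81 in the controls and 11.77, 11.80 and 11.69 in the deleted group. All 6 arrays fell within a narrow band, with deleted array 3 lowest. The difference was -0.054 with a SE of 0.12 and a 95% interval of -0.35 to 0.24 (limma, unadjusted p = 0.68). Its second probe set, 1446377_at, ran from 7.29 to 7.65 and differed by 0.18 in the other direction, with overlap.

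Fbln2, a fibulin of vessel walls and basement membranes, read 8.94, 9.12 and 8.88 in the controls and 9.08, 8.51 and 9.06 in the deleted group. Deleted array 2 alone lay below the controls. The difference was -0.10 with a 95% interval of -0.56 to 0.35 (limma, unadjusted p = 0.62), and it was 0.086 without deleted array 2. The other Fbln2 probe set was dim, between 3.67 and 3.79, and differed by -0.035.

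Fbln1, a fibulin that binds fibronectin as well as elastin, had 3 probe sets that pointed different ways. The brightest read 7.35, 7.04 and 6.71 in the controls and 6.78, 6.97 and 7.11 in the deleted group, with the deleted arrays inside the control range and a difference of -0.083 (95% interval -0.55 to 0.38, limma, unadjusted p = 0.69). It was 0.076 without control array 1.

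The probe set 1439688_at was higher without overlap in the deleted group. It read 6.81, 6.99 and 6.71 in the controls and 7.06, 7.13 and 7.04 in the deleted group, a difference of 0.24 with a 95% interval of -0.086 to 0.57 (limma, unadjusted p = 0.13). The third, 1422540_at, differed by -0.26 with overlap. Among all genes 3.36% were higher without overlap. No direction could be given for Fbln1.

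Over the 17 probe sets, 13 had a lower mean in the deleted group and 5 were lower without overlap: 1 of Lox, both of Loxl1 and both of Mfap5. On the whole array 2.83% of probe sets were lower without overlap. The same 5 had an unadjusted p under 0.05. At the level of genes 3 of the 8 members were lower at an unadjusted p under 0.05, against 1.07% of all genes. At a fold over 1.5 with an unadjusted p under 0.05 the count was 2, Lox and Loxl1, against 0.61% of all genes in the lower direction. No member met the fold change of over 2 with an unadjusted p under 0.05 that was used as the call rule, which 0.077% of all genes met in the lower direction, and 0 of 8 had an adjusted p under 0.05, against 0% of all genes. Without the third array of each group, 5 of the 8 members were lower without overlap, Eln and Fbln1 being added, against 12.8% of all genes, and Loxl3 was higher without overlap at a difference of 0.67, against 20.7%. The median half-width of the 95% interval over the array was 0.45 log2 units, which is the precision of a typical probe set, and the steadier ones had narrower intervals.

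**Figure D2:**
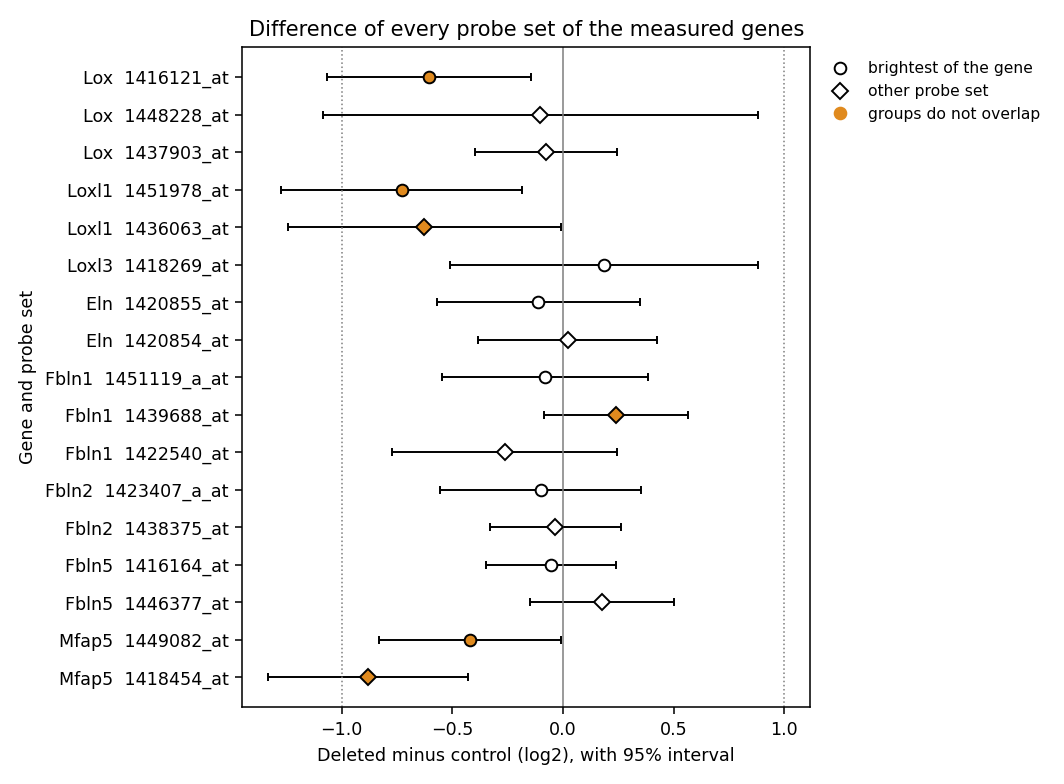
Deleted minus control difference (log2) of each of the 17 probe sets with its 95% interval from limma; circles are the brightest probe set of a gene, diamonds its others, filled symbols mark groups that did not overlap, and dotted lines mark a 2-fold change. The filled symbols at the left are Lox, both Loxl1 and both Mfap5 probe sets, the filled symbol at the right is 1439688_at of Fbln1, and no point lies beyond a dotted line.

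Probe sets of a gene followed each other across the 6 arrays in some members and not in others. Pearson's r was 0.85 between the Loxl1 probe sets, 0.83 between those of Mfap5 and 0.64 between those of Eln. It was 0.17 between the brighter 2 of Lox, -0.18 in Fbln2 and -0.21 in Fbln5. Between genes, r was 0.62 for Lox and Loxl1, 0.45 for Lox and Mfap5, and 0.46 for Loxl1 and Mfap5, points that share the difference between the groups. Eln and Fbln1 had r of 0.84, and Loxl3 ran opposite to Fbln1 with r of -0.93. These are descriptions over 6 arrays that share their hybridisation and normalisation, and they carry no test.

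The wider pathway was described by 4 lists of other genes, with 55 measured. Of these 40 had a lower mean in the deleted group (72.7%, against 49.1% of all genes), 5 were lower without overlap (2.7% of all genes) and 0 higher without overlap (3.36% of all genes), and the median difference was -0.11. Without the third array of each group 31 of the 55 had a lower mean (56.4%, against 42.8% of all genes), and without control array 3 alone 34 (61.8%, against 46.1%). None passed the adjusted test, and none met the rule of over 2-fold with an unadjusted p under 0.05.

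Among 12 genes of crosslinking and fibre assembly 9 had a lower mean, with a median of -0.070, and without control array 3 it was 5, with a median of 0.029. Fn1, which encodes fibronectin, the scaffold on which microfibrils assemble, read 10.73, 10.60 and 10.88 in the controls and 10.53, 9.99 and 10.04 in the deleted group. It was the only gene of the list lower without overlap, with a difference of -0.55 and a SE of 0.19 (limma, unadjusted p = 0.022). Pcolce2, an enhancer of procollagen processing, differed by -0.46, and Bmp1, the protease that processes procollagens and the Lox proenzyme, by -0.34, both with overlap. Pcolce2 differed by -0.14 without control array 1, and Bmp1 by 0.011 without control array 3. Loxl4, the oxidase of the family outside the 10 genes, differed by -0.047 with a 95% interval of -0.40 to 0.31.

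Of 21 other elastic fibre and microfibril genes 18 had a lower mean, with a median of -0.16, and 3 were lower without overlap, where 49.1% of all genes had a lower mean and 2.7% were lower without overlap. Without control array 3 it was 16 of 21, with a median of -0.091 (46.1% of all genes). Without the third array of each group it was 13 of 21, with a median of -0.081 (42.8% of all genes). Mfap4, a microfibril-associated protein that binds elastin, read 8.12, 7.91 and 7.98 in the controls and 7.18, 7.51 and 7.35 in the deleted group. Its difference of -0.66 with a SE of 0.15 (limma, unadjusted p = 0.0030) was close in size to those of Lox and Loxl1. The proteoglycans Vcan and Bgn were the others, at -0.36 and -0.16. Fbln7, a fibulin outside the 10 genes, differed by -0.88 and Ltbp2, a microfibril-binding protein of the latent TGF-beta binding family, by -0.63, both with overlap.

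Both Fbln7 and Ltbp2 were highest on control array 3, at 8.83 and 11.46. Without that array they differed by -0.39 and -0.26.

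Ligands held by the microfibril and their receptors gave 8 of 13 lower, with a median of -0.13. Without control array 3 the median was -0.016, with 8 of 13 lower. Without the third array of each group it was 0.0059, with 6 of 13 lower. Tgfb2, a TGF-beta ligand, was lower without overlap, as were 2.7% of all genes, at -0.31 with a SE of 0.16 (limma, unadjusted p = 0.087). With the mean of all its probe sets Tgfb2 differed by -0.13. The integrin subunit Itgb5 differed by -0.34 and the receptor Tgfbr1 by -0.24, both with overlap. Without control array 3 Itgb5 differed by -0.077.

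Proteases that degrade elastin gave 5 of 9 lower, with a median of -0.035 and no gene without overlap. Mmp12, the macrophage elastase, differed by -0.89 with a SE of 0.36 (limma, unadjusted p = 0.041), and by -0.55 without control array 2. Mmp9, a gelatinase, differed by 0.73 in the other direction, with 7.73, 6.75 and 6.06 in the controls and 8.20, 7.41 and 7.13 in the deleted group. It differed by 0.34 without control array 3 and by 1.18 without control array 1. Ctss, an elastin-degrading cathepsin of macrophages, differed by -0.47, and by -0.28 without control array 3.

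**Figure D3:**
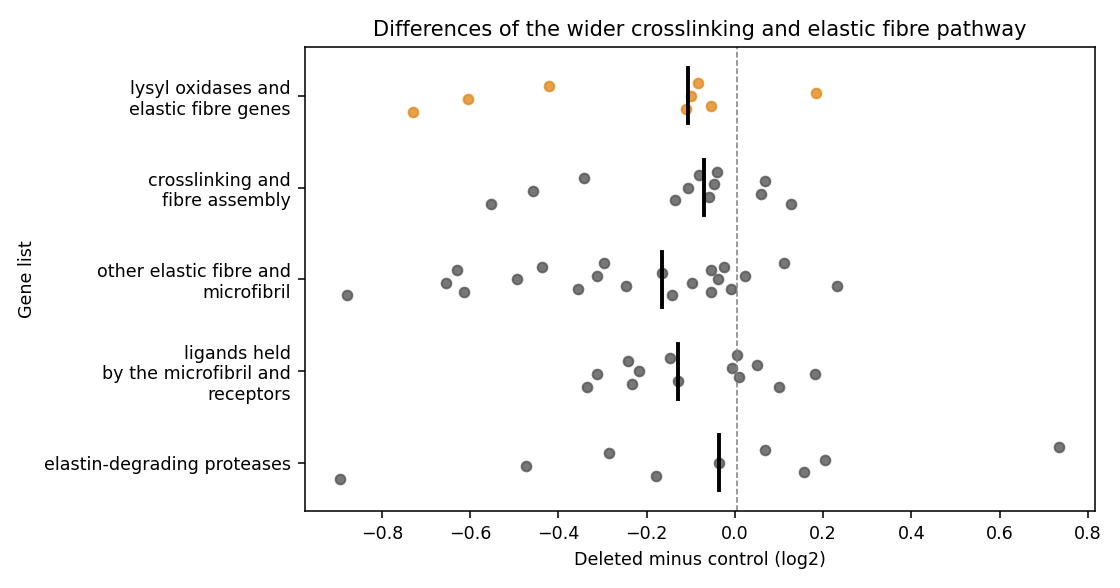
Deleted minus control difference (log2) of each gene of the set (orange) and of the 4 wider pathway lists (grey), with black bars at the median of each list and a dashed line at the median of all genes, 0.0042. All 5 medians lie left of the dashed line, between -0.16 and -0.035, and Mmp9 at 0.73, which ranged from 0.34 to 1.18 with 1 array left out, is the point farthest to the right. The median of crosslinking and fibre assembly was 0.029 without control array 3. That of the ligands and receptors was 0.0059 without the third array of each group.

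Markers of other cell types were read on the sorted samples as well, and 2 of these lists were apart in the same direction as Lox, Loxl1 and Mfap5, the fibroblast and the macrophage markers. Of 13 fibroblast markers 13 had a lower mean in the deleted group, with a median difference of -0.53, and 12 did so without control array 3 or without the third array of each group. Their mean deviation from the 6-array mean was 0.073 to 0.41 on the control arrays and -0.34 to -0.25 on the deleted arrays. Col14a1, a fibril-associated collagen, and Dpep1, a dipeptidase, differed most, at -1.16 and -1.13. Col14a1 was lower without overlap, as were 2.7% of all genes, while Dpep1 overlapped, at 6.96 on deleted array 2 and 6.80 on control array 2. Both were past the rule of over 2-fold with an unadjusted p under 0.05, which 0.077% of all genes met in the lower direction. Both are in the list of genes that the authors called from these same arrays by that rule. Their call here is therefore not independent of that list. Each fell short of 2-fold in some settings with 1 array left out, Col14a1 at -0.92 without deleted array 3, and Dpep1 at -0.94, -0.92 and -0.89 without control array 3, deleted array 1 and deleted array 3. With the mean of all probe sets of the gene Col14a1 differed by -0.70 and Dpep1 by -1.10. The lowest value of any fibroblast marker was 5.57, that of Dpep1 on deleted array 3. This was above the lowest value tested, 2.31, but below the median of the probe set means, 7.03. The filter on dim probe sets left Dpep1 with no value.

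Of 12 macrophage markers 12 had a lower mean in the deleted group, with a median of -0.73. Their mean deviation was 0.079, 0.25 and 0.79 on control arrays 1 to 3 and -0.43, -0.067 and -0.62 on deleted arrays 1 to 3, and no value was below 6.07. Control array 3 was highest, the array with the widest gap between 3′ and 5′ probe sets of Gapdh and of actin (1.31 and 1.67 log2 units). Without it 12 of 12 still had a lower mean, with a median of -0.54. The complement subunit C1qb and the ficolin Fcna differed most, at -1.30 and -1.25, and by -0.85 and -0.92 without that array. The groups overlapped in C1qb, at 11.57 on deleted array 2 and 11.23 on control array 1. C1qb and Fcna are also in the authors' list of genes called from these arrays. The counts, medians and mean deviations of the fibroblast and macrophage markers include genes of that list. They are therefore not independent of it. The mean deviation of the 8 members was 0.15, 0.075 and 0.13 on control arrays 1 to 3 and -0.087, -0.15 and -0.12 on deleted arrays 1 to 3.

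On control arrays 1 to 3 the fibroblast markers deviated by 0.41, 0.073 and 0.37, in the same order as the members. On the deleted arrays they deviated by -0.26, -0.25 and -0.34, an order that the members did not follow. The part of fibroblast or macrophage transcripts in the lower readings of Lox, Loxl1 and Mfap5 was not tested.

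Smooth muscle and pericyte markers, from cells that also make elastic fibres, lay the other way. Of 12 such markers 3 had a lower mean in the deleted group, with a median of 0.15. Their mean deviation was 0.067, -0.31 and 0.0011 on control arrays 1 to 3 and 0.073, 0.071 and 0.099 on deleted arrays 1 to 3. Control array 2 thus lay lowest, and control array 1 lay close to the deleted arrays. Without control array 3, 2 of 12 had a lower mean, with a median of 0.13. Without the third array of each group it was 5 of 12, with a median of 0.19 (42.8% of all genes had a lower mean). Tagln differed by 0.62 and was higher without overlap, as were 3.36% of all genes, and Myh11 differed by 0.41. They differed by 0.39 without control array 3 and by 0.19 without control array 2, respectively.

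Endothelial markers gave 2 of 14 lower with a median of 0.13, of which Pecam1 and Esam differed most, at 0.39 and 0.30, both with overlap. Without control array 3 they differed by 0.16 and 0.032, and the list gave 4 of 14 lower with a median of 0.064. It gave 5 of 14 lower with a median of 0.040 without the third array of each group.

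Arterial endothelial markers gave 4 of 9 lower with a median of 0.013, and Hey2 and Gja5 differed most, at 0.45 and -0.18. Hey2 was high on deleted array 3 alone and differed by 0.073 without it, and Gja5 by -0.096. Pan-leukocyte markers gave 7 of 8 lower with a median of -0.41, led by Cd48 at -0.80 and Fermt3 at -0.61, although their mean deviation on deleted array 2 was 0.27, inside the range of the controls. Cd48 was low on deleted array 1 and differed by -0.064 without it, and Fermt3 differed by -0.28 without control array 3 and by -0.051 with the mean of all its probe sets. Mammary epithelial markers gave 11 of 12 lower with a median of -0.17, led by Muc1 at -0.67 and Lalba at -0.40, and were bright throughout, between 9.44 and 14.68. This list gave 9 of 12 lower with a median of -0.051 without control array 3, and 9 of 12 with -0.053 without the third array of each group. Without deleted array 3 Muc1 differed by -0.21 and Lalba by -0.087. Adipocyte markers gave 3 of 4 lower with a median of -0.073, led by Retn at -0.26 and Cidec at -0.084, which were -0.073 and -0.016 without control array 1. The groups overlapped in the mean deviation of the endothelial, arterial, leukocyte, epithelial and adipocyte lists.

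**Figure D4:**
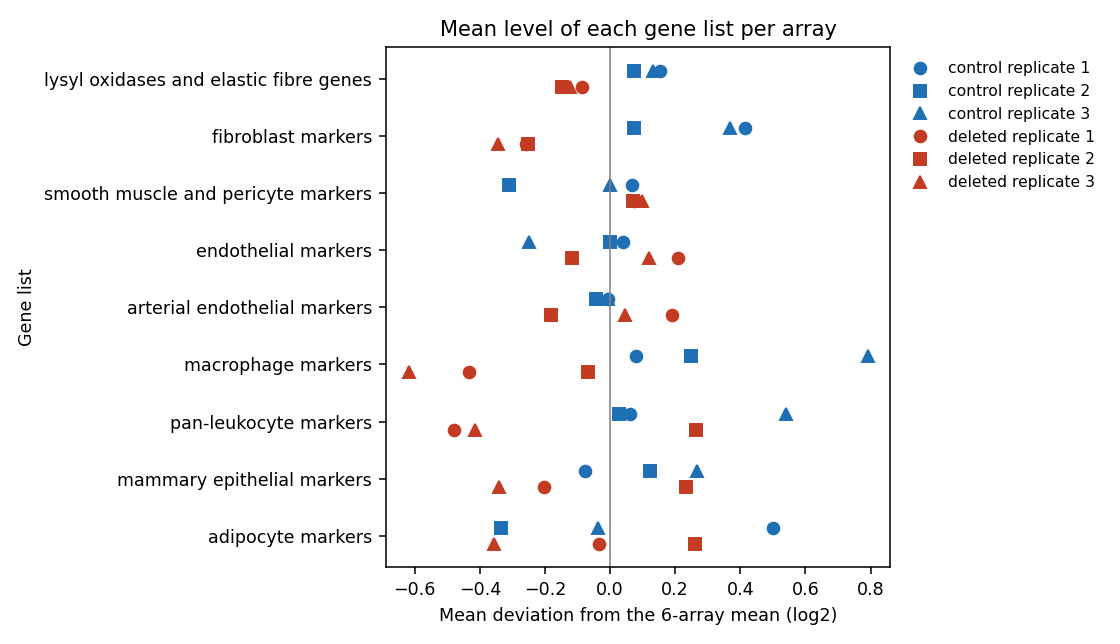
Mean deviation from the 6-array mean (log2) of each gene list on the 3 control (blue) and 3 deleted (red) arrays. The members, the fibroblast markers and the macrophage markers are lower on all deleted arrays, the smooth muscle and pericyte markers are slightly higher on them, and the other 5 lists overlap.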

How the data were processed

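Endothelial cells were sorted with a CD31 antibody, and their RNA was amplified and hybridised to Affymetrix Mouse Genome GeneChip arrays, 3 per group. The authors deposited log2 expression values made by Robust Multichip Average (RMA), which corrects the background, quantile-normalises and summarises the probes of a probe set. The software version was not given in the sources used here. RMA compresses differences of dim probe sets, and no depth exists for arrays, so precision is limited by the number of arrays.

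The deposited log2 values were used without further normalisation. After removal of 64 array controls from 45101 probe sets, a linear model without covariates was fitted to the other 45037 (limma 3.58.1 with eBayes, R 4.3.3, 2-sided p, Benjamini-Hochberg adjustment across the array). Groups came from the genotype labels. The platform annotation gave 34945 probe sets with 1 gene, 932 with several and 9160 unnamed here, and 34741 of the first were matched to RefSeq symbols. The brightest 1-gene probe set represented each of 18193 genes. An exact permutation test of 3 against 3 arrays cannot give p below 0.1, so none was run. At most 0.218% of values were identical between any 2 arrays. The fit was tested on simulated data.

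The members, the pathway lists and the marker lists were chosen with earlier results of these data known. Named were all members, the 3 genes of each pathway list and the 2 of each marker list with the largest differences. Vcan, Bgn and Loxl4 were added after their values were seen. Alternatives were another centring, quantile normalisation, prior, array weights, a signal filter, blocks by the number in the sample titles, the mean of all probe sets, and leaving out arrays, of which leaving out the third array of each group was chosen after seeing the data. A deviation was computed per gene as the array's value minus the mean of the 6 arrays.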

Additional observations from a re-analysis of the deposited data

How the results depend on the processing

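The differences of Lox, Loxl1 and Mfap5 kept their sign under every alternative that gave a value, and the smallest adjusted p of any alternative was 0.590. Leaving out 1 array at a time gave -0.74 to -0.42 for Lox, -0.87 to -0.47 for Loxl1 and -0.53 to -0.28 for Mfap5. The filter on dim probe sets left Loxl1 with no value. Of 652 alternatives for single probe sets and genes, 24 turned the sign, and the cause was not tested. Leaving out 1 array gave -0.010 to 0.45 for Loxl3, -0.26 to 0.063 for Eln, -0.24 to 0.076 for Fbln1 (0.0046 without deleted array 1), -0.20 to 0.086 for Fbln2, -0.75 to 0.011 for Bmp1, and -0.47 to 0.29 for 1448228_at of Lox (0.20 without deleted array 2). It gave -0.078 to 0.16 for 1420854_at of Eln (-0.020 without control array 3, -0.037 without deleted array 3) and -0.057 to 0.0042 for 1438375_at of Fbln2. With the mean of all probe sets of a gene Fbln5 differed by 0.062 and Tgfbr1 by 0.18. With array weights 1437903_at of Lox differed by 0.0093 and Cidec by 0.062.

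The median of the members ranged from -0.25 to -0.086 with 1 array left out, and was -0.056 with the mean of all probe sets. Counting every probe set, 13 were lower. At a fold over 1.5 with an unadjusted p under 0.05, 2 members were called (0.61% of all genes in the lower direction), and at an unadjusted p under 0.05 alone 3 (1.07%). The labels do not say what the numbers in the sample titles mark, and they were not taken to pair the samples. Only 2 numbers were shared, and the deviations of same-numbered samples correlated at 0.17 and -0.017. With that number as a replicate block, which drops the third array of each group, and equally without those arrays, the median was -0.31, 1420854_at of Eln differed by -0.078, Bmp1 by 0.15, Itgb5 by 0.028 and Lalba by 0.060. Without those arrays 5 members were lower without overlap (12.8% of all genes) and Loxl3 was higher without overlap (20.7%), and 31 pathway genes of 55 had a lower mean. That count was 34 to 49 with 1 array left out. A typical probe set had a 95% interval of 0.45 log2 units on either side.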

Other observations

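The genes outside the set whose levels over the 6 arrays were most like the mean deviation of the 8 members, among 9091 genes with a mean over the median signal, were Gpt2 (Pearson's r 0.989), Nhlrc3 (0.988), Esrp1 (0.958), C5ar1 (0.952) and Tut7 (0.951). They differed between deleted and control arrays by -0.35, -0.34, -0.22, -0.59 and -0.052 log2 units. The ranking picks the highest of 9091 correlations over 6 arrays that share the difference between the groups, and it is given as a description.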
